A study of Mus musculus with 12 samples.

Results

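Rgs5, Higd1b and Vtn are 3 genes whose RNA marks pericytes, and they were taken by name from the 10749 genes of a deposited expression table. They were chosen by measured values, their own levels in these libraries, which were already known to differ between the sorted populations. Their levels and fold changes are therefore a description, with no test. RNA sequencing was done on 12 libraries, 4 each of stem, progenitor and niche cells, sorted by fluorescence from the dentate gyrus of mice aged 8 weeks. All mice carried the LPA1-GFP transgene Tg(Lpar1-EGFP)GX193Gsat, in which green fluorescent protein (GFP) reports the gene of lysophosphatidic acid receptor 1 (Lpar1). The line had an FVB/N-Swiss Webster background and was rederived into C57BL/6. Stem libraries held GFP-positive cells that also carried both EGFR and Prominin-1. Progenitor libraries held GFP-positive cells that lacked 1 or both of these markers, and niche libraries held GFP-negative cells. No unsorted tissue and no mouse without the transgene was analysed here. RNA of 1000 cells was amplified for each library. The labels do not say whether replicates came from separate animals or pools, so every p-value measures the spread between these libraries, which may be technical.

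Pericytes are mural cells that wrap the capillaries within the basement membrane. They are drawn to the vessel by endothelial platelet-derived growth factor, which they sense through the receptor Pdgfrb, and in the brain they help to keep the blood-brain barrier closed. Rgs5 encodes a regulator of G protein signalling that speeds GTP hydrolysis on G alpha subunits. Higd1b encodes a member of the hypoxia-inducible gene domain family, whose relatives act in the mitochondrial inner membrane. Vtn encodes vitronectin, a secreted adhesive protein that binds integrins and the plasminogen activator inhibitor.

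In the GRCm38 (mm10) mouse genome, Rgs5 (ENSMUSG00000026678) is a protein-coding gene on the plus strand of chromosome 1, from 169655501 to 169695813. Vtn (ENSMUSG00000017344) lies on the plus strand of chromosome 11, from 78499091 to 78502324, and Higd1b (ENSMUSG00000020928) on the same strand and chromosome, from 102835849 to 102838040. The spans of the 3 genes do not overlap each other, and overlap with other genes is not reported here. The promoters of Rgs5 and Vtn are shown because these 2 genes were the most alike across libraries of the 3, while the letters at their starts differ. The Higd1b promoter was not analysed here. Each sequence is from RefSeq (GRCm38.p6, plus strand, 250 bases before the start of transcription to 50 after it), in lower case, with capitals for each match to the motifs searched.
Rgs5 promoter, chr1:169655251-169655550: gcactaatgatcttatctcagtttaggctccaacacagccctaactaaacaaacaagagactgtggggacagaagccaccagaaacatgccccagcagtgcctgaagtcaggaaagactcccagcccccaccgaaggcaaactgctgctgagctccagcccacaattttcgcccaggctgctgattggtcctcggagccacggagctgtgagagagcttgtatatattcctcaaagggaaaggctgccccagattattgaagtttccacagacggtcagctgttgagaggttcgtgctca
Vtn promoter, chr11:78498870-78499169: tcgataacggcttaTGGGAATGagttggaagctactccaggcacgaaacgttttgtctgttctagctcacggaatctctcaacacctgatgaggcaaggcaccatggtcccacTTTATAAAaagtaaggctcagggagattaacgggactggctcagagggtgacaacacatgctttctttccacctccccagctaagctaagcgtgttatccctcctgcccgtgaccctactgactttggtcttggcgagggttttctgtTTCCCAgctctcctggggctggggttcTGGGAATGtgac

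The motifs were searched on both strands. They were the TATA box (TATAAA), the core of RBPJ, the DNA-binding partner of Notch (TGGGAA), the core of the TEAD factors (GGAATG) and the GC box bound by Sp1 (GGGCGG). The Rgs5 window held none of the 4. The Vtn window held TGGGAA 3 times, of which 2 run on into GGAATG, and 2 overlapping matches of TATAAA, 1 on each strand. GGGCGG was not among its letters. Of 32817 mouse promoters of the same length, 25.56% held TGGGAA at least once, 14.66% GGAATG, 13.62% TATAAA and 35.63% GGGCGG. For TGGGAA alone a cutoff of 3 matches, the count of the Vtn window itself, was also used, and 121 promoters (0.369%) reached it. Since the Vtn window matches that cutoff by its choice, nothing is read from this share. These matches describe letters and do not show that a factor binds.

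The library totals ran from 7597256 to 22854036 reads. Levels are RPKM, the reads per kilobase of exon relative to the library total, scaled between libraries by the trimmed mean of M-values (TMM), a factor that makes the bulk of genes equal. Of the sort markers, Egfr averaged 34.1 ± 6.34 in stem, 5.60 ± 3.92 in progenitor and 8.51 ± 9.51 in niche libraries (SD, n = 4 each), while Lpar1 and Prom1 were not analysed here. Csf1r, the growth factor receptor of macrophages, averaged 549 ± 332 in stem, 19.1 ± 9.82 in progenitor and 275 ± 58.4 in niche libraries. Niche replicate 1 stood apart, with 33.0% of its reads on the alpha-globin genes and a TMM factor of 0.418, against 0.0200% to 10.9% of reads and factors of 0.820 to 1.25 in the other 11 libraries. Progenitor replicate 1 had a factor of 0.917, against 1.24 to 1.25 in the other progenitor libraries.

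Rgs5 RNA was low in stem libraries and high in both other populations. Its level was 38.4, 26.5, 5.83 and 2.55 RPKM in stem replicates 1 to 4. It was 179, 145, 123 and 159.5 in progenitor replicates and 210.4, 283, 132 and 116 in niche replicates. Every progenitor and niche library lay above every stem library, and progenitor and niche libraries overlapped. The lowest progenitor library had 3.21 times, and the lowest niche library 3.02 times, the level of the highest stem library. Stem libraries averaged 18.3 ± 17.1, progenitor libraries 152 ± 23.7 and niche libraries 185 ± 77.1 (SD, n = 4 each). Rgs5 was fitted at a log2 fold change of -3.57 ± 0.60 (SE) for stem over progenitor, -3.78 ± 0.60 for stem over niche and -0.21 ± 0.60 for progenitor over niche.

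Within populations, Rgs5 varied most in stem, where the highest library was 15.04 times the lowest. The same ratio was 1.46 in progenitor and 2.44 in niche libraries. Progenitor libraries were thus close to each other in Rgs5, although their marker combinations were pooled. Stem libraries held 173 to 1875 reads of the gene, progenitor libraries 11113 to 20593 and niche libraries 3501 to 20335. Among the 8360 genes tested, ordered by their mean level per length, Rgs5 ranked 2546 in stem, 567 in progenitor and 539 in niche.

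Vtn was the most abundant of the 3 genes in all 12 libraries. Vtn was at 130.4, 61.0, 38.2 and 7.71 RPKM in stem replicates 1 to 4. It was 1161, 557, 487 and 518 in progenitor replicates and 1159.8, 631, 428 and 339.6 in niche replicates. As with Rgs5, no stem library reached the level of any progenitor or niche library, and progenitor and niche overlapped. The lowest progenitor library was 3.74 times, and the lowest niche library 2.60 times, the highest stem library. Stem libraries averaged 59.3 ± 52.2, progenitor libraries 681 ± 321 and niche libraries 639 ± 368 (SD, n = 4 each). The fitted log2 fold changes of Vtn were -3.96 ± 0.63 (SE) for stem over progenitor, -3.81 ± 0.63 for stem over niche and 0.15 ± 0.63 for progenitor over niche. Vtn ranked 1178 of 8360 by its stem mean, 160 by its progenitor mean and 184 by its niche mean. By the stem mean the RNA of this secreted protein was thus still above the middle of all genes. Stem libraries held 186 to 2266 reads of Vtn, and ranks within single libraries are not reported here.

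Higd1b was the scarcest of the 3 in stem and the most variable between libraries. Its level was 7.25, 9.90, 0.467 and 0.238 RPKM in stem replicates 1 to 4. It was 278, 59.9, 47.4 and 40.2 in progenitor replicates and 387, 117, 29.3 and 93.8 in niche replicates. The values of stem replicates 3 and 4 rest on 6 and 3 reads, where 3 reads are the floor used here. Their exact Poisson 95% intervals are 0.171 to 1.02 RPKM for replicate 3 and 0.0490 to 0.694 for replicate 4. These intervals cover counting error only, since amplified reads without molecular identifiers are not independent molecules. No stem library overlapped a progenitor or niche library, by 4.06 times for progenitor and 2.96 times for niche. Progenitor and niche libraries overlapped. Stem libraries averaged 4.46 ± 4.87, progenitor libraries 106 ± 115 and niche libraries 157 ± 158 (SD, n = 4 each). The fitted log2 fold changes of Higd1b were -4.41 ± 0.85 (SE) for stem over progenitor, -4.90 ± 0.85 for stem over niche and -0.49 ± 0.85 for progenitor over niche. Higd1b ranked 5131 of 8360 genes in stem, 762 in progenitor and 621 in niche.

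**Figure D1:**
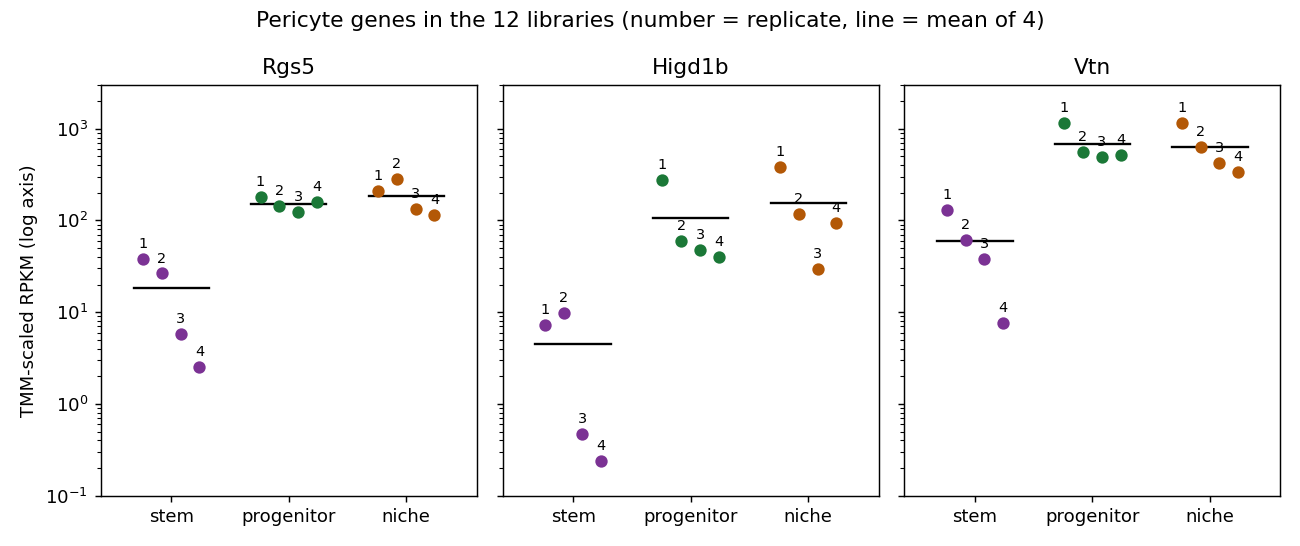
Level of Rgs5, Higd1b and Vtn (TMM-scaled RPKM, log axis) in the 4 stem, 4 progenitor and 4 niche libraries; each point is 1 library with its replicate number, and the line is the mean of 4. For each gene the 4 stem points lie below all progenitor and niche points, for example 2.55 to 38.4 for Rgs5 against 123 to 179 in progenitor and 116 to 283 in niche, while progenitor and niche points overlap.

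For 3 of 3 genes the stem libraries lay below all progenitor libraries, as they did for 13.2% of the 8360 genes tested. They lay below all niche libraries for 3 of 3 genes too, and for 10.4% of genes tested. Since these levels chose the genes, nothing is read from those counts. The progenitor libraries lay below all niche libraries for 0 of the 3 genes, against 6.81% of genes tested. In these libraries, each made from RNA of many cells, fewer cells of a type and less RNA per cell cannot be told apart.

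Within populations the 3 genes were high in the same libraries after TMM scaling, although the full order of the 4 libraries differed between genes. In stem and in niche, replicates 1 and 2 were above replicates 3 and 4 for each gene. For Rgs5 in niche this depended on the scaling. Before it, Rgs5 was at 87.9, 232, 127 and 101 RPKM in niche replicates 1 to 4, with replicate 1 the lowest. The summed level of 13 other pericyte genes was 75.1, 45.0, 40.0 and 28.5 RPKM in stem replicates 1 to 4, with replicates 1 and 2 again above the others. A large part of these sums was 1 gene, Slc19a1, at 30.3, 16.3, 20.1 and 18.0 RPKM in the same order. In progenitor, replicate 1 was the highest for each gene after TMM scaling. Before it, Rgs5 was at 164, 180, 154 and 198 RPKM in progenitor replicates 1 to 4, with replicate 4 the highest. The summed level of those 13 genes was 649.6 in progenitor replicate 1, against 212 to 243 in the other 3. Progenitor replicate 1 also had the highest summed level of 15 endothelial genes, 643 against 179.8 to 324 in the other 3, and the largest share of alpha-globin reads, 0.228% against 0.0523% to 0.0918%. The part of vessel fragments or blood in these differences was not tested.

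Ratios within a library do not depend on the scaling between libraries. Higd1b over Rgs5 was 0.189, 0.373, 0.0802 and 0.0931 in stem replicates 1 to 4. It was 1.55, 0.414, 0.385 and 0.252 in progenitor replicates and 1.84, 0.413, 0.222 and 0.808 in niche replicates. Only progenitor replicate 1 and niche replicate 1 had more Higd1b than Rgs5 per length. The stem ratios overlapped those of both other populations, and the lowest pair rests on the few Higd1b reads named above, with 95% counting intervals of 0.0294 to 0.174 in stem replicate 3 and 0.0192 to 0.272 in replicate 4. Vtn over Rgs5 was 3.40, 2.30, 6.55 and 3.02 in stem replicates, 6.48, 3.85, 3.96 and 3.25 in progenitor replicates and 5.51, 2.23, 3.24 and 2.93 in niche replicates. Its ranges overlapped between all 3 populations.

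**Figure D2:**
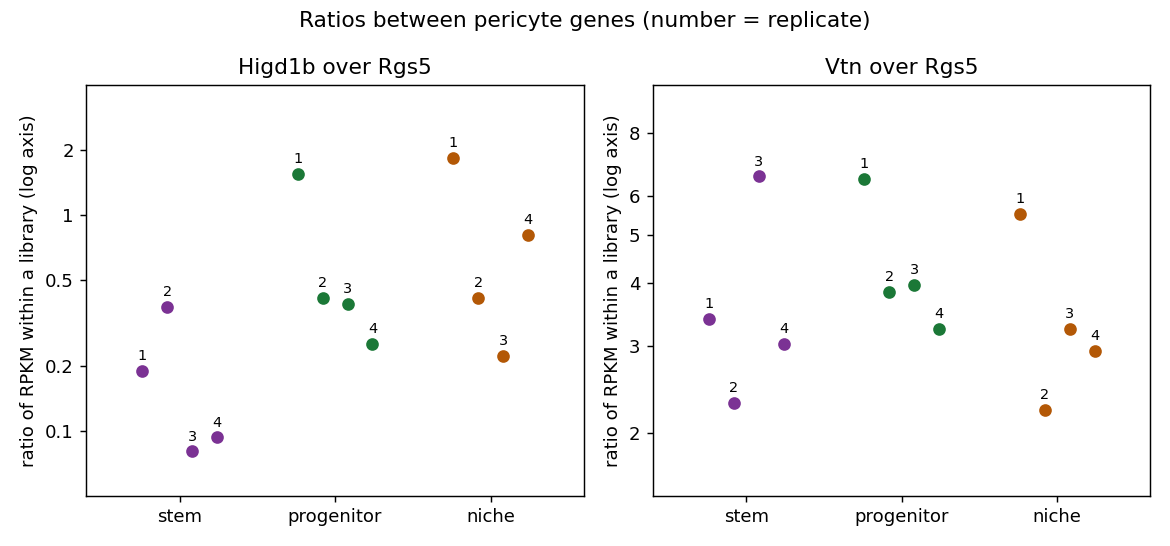
Ratio of Higd1b to Rgs5 (left) and of Vtn to Rgs5 (right) within each library, from RPKM, on log axes; each point is 1 library with its replicate number. Higd1b over Rgs5 is above 1 only in progenitor replicate 1 (1.55) and niche replicate 1 (1.84), and Vtn over Rgs5 lies between 2.23 and 6.55 in all 12 libraries.

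Other pericyte genes were examined from a list of 24 that holds none of the 3 genes. 13 of them were tested, and the other 11, among them Kcnj8, Abcc9, Notch3 and Anpep, were not analysed here. Genes were tested in 1 limma fit over all 8360, with Benjamini-Hochberg adjusted p-values below 0.05 counted as passing. For stem over progenitor, 8 of the 13 were lower and none was higher, with a median log2 fold change of -2.63. Among all genes tested 7.11% passed, 3.40% lower and 3.71% higher, and the median was -0.06. For stem over niche, 5 of 13 were lower and none higher, with a median of -1.73, against 21.6% passing among all genes, 10.7% lower and 10.9% higher, and a median of 0.09. For progenitor over niche none of the 13 passed the test in limma (0 lower, 0 higher), with a median of 0.53, against 11.5% passing among all genes, 5.78% lower and 5.68% higher, and a median of 0.15.

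The largest fall of the list for stem over progenitor was that of Cox4i2, a subunit isoform of cytochrome oxidase. Cox4i2 was at 8.62, 2.30, 7.03 and 2.30 RPKM in stem replicates, 211, 60.5, 54.1 and 53.4 in progenitor replicates and 109.0, 52.9, 34.8 and 19.5 in niche replicates. Stem libraries overlapped neither of the other populations. The log2 fold changes of Cox4i2 were -3.88 ± 0.58 (SE, limma adjusted p = 0.000755) for stem over progenitor and -3.08 ± 0.58 (limma adjusted p = 0.00134) for stem over niche. Ifitm1, an interferon-induced membrane protein, fell in stem in both comparisons as well. Its level was 1.57, 9.44, 0.393 and 1.60 RPKM in stem replicates, 100.9, 29.5, 15.2 and 17.8 in progenitor replicates and 37.2, 64.9, 22.0 and 14.97 in niche replicates. Its log2 fold changes were -3.31 ± 0.69 (SE, limma adjusted p = 0.00712) for stem over progenitor and -3.30 ± 0.69 (limma adjusted p = 0.00291) for stem over niche. Both genes passed in each of the 12 fits that left out 1 library, in both comparisons.

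Pdgfrb, the receptor that defines the lineage, was at 7.80, 1.12, 0.120 and 1.03 RPKM in stem replicates. It was at 24.7, 13.6, 10.1 and 14.1 in progenitor replicates and 10.6, 11.9, 8.25 and 1.68 in niche replicates. Pdgfrb was lower for stem over progenitor, at -2.63 ± 0.65 on the log2 scale (SE, limma adjusted p = 0.0205), whereas for stem over niche its value was -1.61 ± 0.65 (limma adjusted p = 0.0892), with niche replicate 4 inside the stem range. The adhesion molecule Mcam fell in both comparisons, at -2.90 ± 0.69 for stem over progenitor and -2.45 ± 0.69 for stem over niche (limma adjusted p = 0.0165 and 0.0189). The mitochondrial gene Ndufa4l2 (-3.08 ± 0.79), Art3, of the ADP-ribosyltransferase family (-2.99 ± 0.75), the sphingosine phosphate receptor S1pr3 (-2.65 ± 0.67) and the Notch target Heyl (-2.25 ± 0.63) passed for stem over progenitor, with limma adjusted p-values of 0.0267, 0.0232, 0.0229 and 0.0417 in that order. For stem over niche the same 4 were at -2.23, -1.67, -1.53 and -1.73 and did not pass. The difference between the comparisons was not tested, and they share the stem libraries. For stem over progenitor, Pdgfrb, Ndufa4l2 and S1pr3 each passed in 7 of the 12 fits that left out 1 library, Art3 and Mcam in 8, and Heyl in 3. All 6 calls were lost without stem replicate 3 or stem replicate 4, and those of Pdgfrb, Ndufa4l2, Art3, Mcam and Heyl also without progenitor replicate 1. Heyl was lost without any 1 of the stem or progenitor libraries or niche replicate 4, and with the replicate number as a block (limma adjusted p = 0.0502). Mcam passed for stem over niche in 10 of the 12 fits, all but those without stem replicate 3 or stem replicate 4.

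Cspg4, the NG2 proteoglycan, which oligodendrocyte precursors also carry, and Cd248, the membrane protein endosialin, passed for stem over niche. Cspg4 changed by -2.16 ± 0.65 (SE, limma adjusted p = 0.0281) and Cd248 by -2.44 ± 0.64 (limma adjusted p = 0.0131), while for stem over progenitor they were at -0.19 ± 0.65 and -2.01 ± 0.64 and did not pass. Cspg4 passed for stem over niche in 6 of the 12 fits that left out 1 library, not without stem replicate 1, 2 or 4 or niche replicate 2, 3 or 4, and Cd248 in all 12. Cspg4 was near the stem level in all 4 progenitor libraries, at 0.662 to 1.27 RPKM against 0.261 to 1.20 in stem libraries. Foxf2, Ggt1 and Slc19a1, a transcription factor, a glutathione-cleaving enzyme and the reduced folate carrier, passed in none of the 3 comparisons.

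Counts of the pericyte list depended on single libraries. The count of 8 lower for stem over progenitor became 4 without stem replicate 2 or progenitor replicate 2, 2 without stem replicate 3 or stem replicate 4, 3 without progenitor replicate 1 and 5 without progenitor replicate 3. The count of 5 lower for stem over niche became 3 without stem replicate 4 and 11 without niche replicate 1. In niche replicate 1 the 3 genes were high after TMM scaling, yet several listed genes were scarce. It held 11 reads of Art3, 12 of Ndufa4l2, 5 of Heyl, 9 of S1pr3 and 13 of Cspg4, while the other niche libraries held at least 176, 398, 108, 165 and 426 in that order. Rgs5 had 4857 reads and Cox4i2 436 in the same library. For progenitor over niche, leaving out niche replicate 1 made 2 of the 13 pass as lower.

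**Figure D3:**
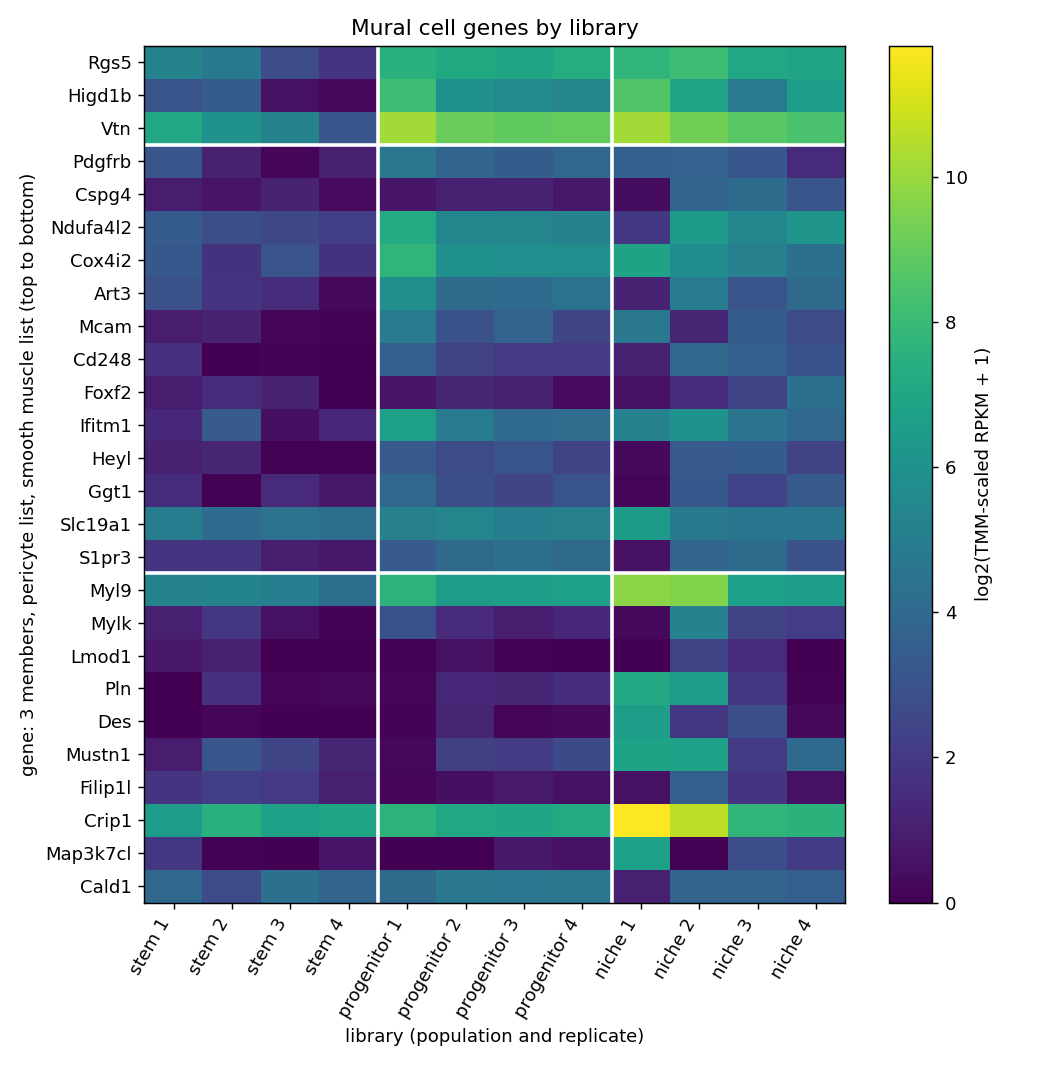
Level, as log2(TMM-scaled RPKM + 1), of Rgs5, Higd1b and Vtn, of 13 other pericyte genes and of 10 smooth muscle genes (rows, parted by white lines) in the 4 stem, 4 progenitor and 4 niche libraries (columns). The 3 genes and Cox4i2 are darker in each stem library than in any progenitor or niche library, several pericyte genes are dark in niche replicate 1 as well, and Crip1, Pln, Mustn1 and Myl9 are brightest in niche replicates 1 and 2.

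Smooth muscle genes, which mark the mural cells of larger vessels, were examined in the same way. 10 of 20 listed were tested, and the defining genes Acta2, Tagln and Myh11 were not analysed here. For stem over progenitor none of the 10 passed in limma (0 lower, 0 higher), with a median log2 fold change of -0.37, against 3.40% of all genes lower and 3.71% higher. For stem over niche 4 were lower, with a median of -2.39, against 10.7% of all genes lower. They were Myl9, a myosin light chain (-3.16 ± 0.63, SE), the desmin gene Des (-2.85 ± 0.91), Mustn1, a small nuclear protein of muscle and skeleton (-2.99 ± 0.92), and the LIM protein gene Crip1 (-2.52 ± 0.71), with limma adjusted p-values of 0.00199, 0.0358, 0.0307 and 0.0188 in that order. This count became 1 without stem replicate 1, and 2 without stem replicate 3, stem replicate 4 or niche replicate 2. Of the 12 fits that left out 1 library, Myl9 passed in all, Crip1 in 10 and Mustn1 in 7. Des was tested in 8 of those fits and passed in 4, and its call was lost without each stem replicate. Des was at 95.2, 2.72, 6.12 and 0.190 RPKM in niche replicates, the last on 1 read. For progenitor over niche 1 gene of 10, Mustn1, was lower (-3.13 ± 0.92, limma adjusted p = 0.0383), against 5.78% of all genes. Mustn1 passed in 5 of the 12 fits that left out 1 library. The count was 0 without stem replicate 3, niche replicate 1 or any 1 of the 4 progenitor replicates, 2 without niche replicate 3 and 4 without niche replicate 4.

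The summed level of the 10 smooth muscle genes ran from 149.6 to 239.8 RPKM among stem libraries, from 252 to 420.3 among progenitor libraries and from 323 to 4876 among niche libraries. The 2 highest were niche replicates 1 and 2, at 4876 and 2602. Those 2 libraries were also the highest of all 12 in Rgs5, whereas in Vtn progenitor replicate 1 equalled niche replicate 1 within 1 RPKM. Both statements depend on TMM scaling. Before it, niche replicate 1 was at 87.9 RPKM of Rgs5, below every progenitor library. Its Vtn was then at 485, against 1065 in progenitor replicate 1. For the pericyte list the sums ran from 28.5 to 75.1 among stem, 212 to 649.6 among progenitor and 205 to 331 among niche libraries. In niche replicate 1 most of the sum of 274 was Cox4i2, at 109, and Slc19a1, at 84.8. By these sums both lists had every stem library below every progenitor and niche library, with progenitor and niche overlapping, as for Rgs5, Higd1b and Vtn. By the median level of its genes the pericyte list did not separate stem from niche, since niche replicate 1, at 1.12 on the log2(RPKM + 1) scale, lay within the stem range of 0.742 to 1.61. By the same measure the smooth muscle list did not separate stem, at 0.839 to 2.04, from progenitor, at 0.229 to 1.46. Its niche libraries lay at 2.10 to 6.62. Most of the smooth muscle sum was Crip1 and Myl9, at 198 and 199 of 420.3 RPKM in progenitor replicate 1. Of the smooth muscle genes Myl9 had the pattern of the sums, at 18.1 to 38.5 RPKM among stem, 90.0 to 199 among progenitor and 98.2 to 856 among niche libraries. Filip1l went the other way between stem, at 1.04 to 3.59 RPKM, and progenitor, at 0.146 to 0.814.

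Endothelial genes, which mark the cells that pericytes cover, were lower for stem over niche, as pericyte genes were, and also for progenitor over niche. None of 15 tested passed for stem over progenitor (0 lower, 0 higher in limma), with a median of -0.48, against 3.40% of all genes lower and 3.71% higher. For stem over niche 11 of 15 were lower, with a median of -2.43, against 10.7% of all genes. For progenitor over niche 9 were lower, with a median of -2.04, against 5.78% of all genes. How the lists differ between comparisons was not tested. Esam, a junction protein (-4.09 ± 0.63, SE, limma adjusted p = 0.000253), and the glucose transporter Slc2a1 (-3.20 ± 0.43, limma adjusted p = 7.68e-05) were among those for stem over niche. Slc2a1 ran from 15.7 to 32.8 RPKM among stem, 38.7 to 45.3 among progenitor and 116 to 598 among niche libraries, so that progenitor and niche, which overlapped in Rgs5, did not overlap. The count of 9 for progenitor over niche became 5 without progenitor replicate 3 or progenitor replicate 4, and that of 0 for stem over progenitor became 1 without stem replicate 1 and 2 without niche replicate 1. The summed level of the 15 genes ran from 186 to 272 among stem, 179.8 to 643 among progenitor and 740.0 to 3029 among niche libraries. Progenitor libraries thus overlapped niche libraries in Rgs5, Higd1b and Vtn while all 4 had a lower endothelial sum than any niche library.

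Other cells around vessels were set beside the 3 genes in the same way. Of 13 fibroblast genes, 5 were lower for stem over progenitor, 2 lower and 1 higher for stem over niche, and 2 lower and 3 higher for progenitor over niche. Among all genes tested 3.40%, 10.7% and 5.78% were lower and 3.71%, 10.9% and 5.68% higher in the same order, so the fibroblast counts for stem over niche were near the share over all genes. Without single libraries these counts were 2 to 6, 2 to 4 and 0 to 1, and 1 to 3 and 2 to 4. Decorin (Dcn) fell by 3.40 ± 0.60 on the log2 scale for stem over progenitor (SE, limma adjusted p = 0.00245). Of 9 astrocyte genes, 6 were lower for stem over progenitor, 9 for stem over niche and 3 for progenitor over niche, against the same shares of all genes. Aldoc, a glycolytic enzyme rich in astrocytes, changed by -2.78 ± 0.27 and -2.62 ± 0.27 (limma adjusted p = 3.52e-05 and 8.25e-06). The fibroblast sum ran from 11.3 to 82.9 among stem, 127 to 337 among progenitor and 100.5 to 235 among niche libraries. The astrocyte sum ran from 601 to 1221 among stem, 3575 to 5049 among progenitor and 5182 to 6827 among niche libraries. Both sums separate stem from progenitor and niche, as Rgs5, Higd1b and Vtn do, and the part of other cell types in the levels of the 3 genes was not tested. The fibroblast count of 5 became 2 without stem replicate 4 or progenitor replicate 1, and 3 without stem replicate 1 or 2 or progenitor replicate 2 or 4. The astrocyte count of 6 became 3 without stem replicate 2. Macrophage genes were higher for stem over progenitor in 9 of 9 cases, with a median of 4.65. Over niche, 3 of the 9 were higher in stem and 2 lower, with a median of 0.51, and for progenitor over niche 7 were lower, with a median of -3.93. The 2 lower became 0 without stem replicate 4 and 1 without stem replicate 3. Of 4 red cell genes, none passed for stem over progenitor in limma, 4 were lower for stem over niche and 3 for progenitor over niche.

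**Figure D4:**
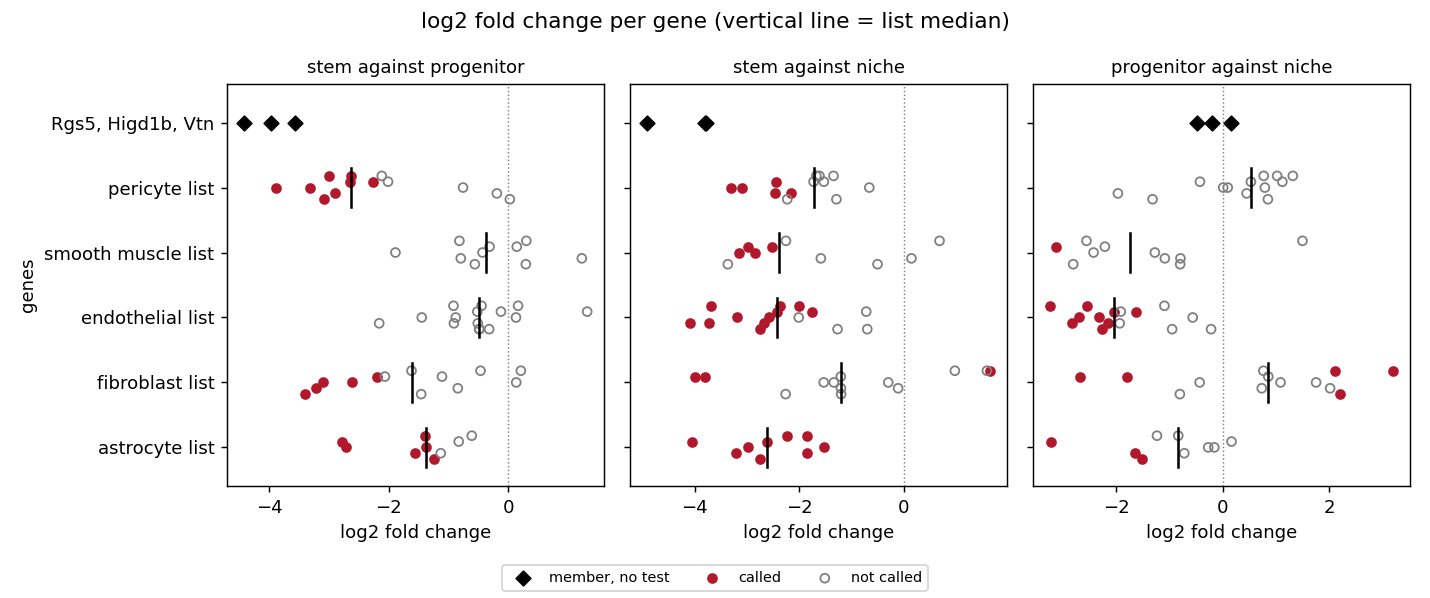
log2 fold change (x axis) of Rgs5, Higd1b and Vtn (diamonds, not tested) and of each tested gene of 5 lists (filled circles passed limma at an adjusted p below 0.05, open circles did not; the vertical line is the list's median) for stem over progenitor, stem over niche and progenitor over niche. The pericyte median lies at -2.63, -1.73 and 0.53 in that order of panels, while the endothelial median lies at -0.48, -2.43 and -2.04; the diamonds of Rgs5 (-3.78) and Vtn (-3.81) overlap in the middle panel.

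The molecular families of the 3 genes were then examined. Of 6 other RGS genes tested, none was lower in any comparison with all 12 libraries (1 was for progenitor over niche without niche replicate 1), and Rgs16 was higher for stem over niche (1.45 ± 0.46, SE, limma adjusted p = 0.036), a call lost without stem replicate 1, 2 or 4, progenitor replicate 3 or 4, or niche replicate 1, 2 or 3. Of 11 genes of the HIGD family and of cytochrome oxidase and its assembly, none passed for stem over progenitor or progenitor over niche in limma. For stem over niche 3 were lower, which were Higd2a (-1.12 ± 0.37, limma adjusted p = 0.0417), the common subunit isoform Cox4i1 (-1.38 ± 0.35, limma adjusted p = 0.0115) and the muscle and heart isoform Cox7a1 (-2.30 ± 0.67, limma adjusted p = 0.0236). That count became 1 without stem replicate 1 or 2, and for progenitor over niche 2 were lower without progenitor replicate 1. Among all genes tested, 3.40% were lower for stem over progenitor, 10.7% for stem over niche and 5.78% for progenitor over niche. The shares higher were 3.71%, 10.9% and 5.68% in the same order. Nothing is read about the RGS family from the 1 gene of 6 that was higher.

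Of 9 genes for proteins that bind vitronectin or act on the same proteolytic and complement systems, 3 were lower and 1 higher for stem over progenitor, 5 lower and 1 higher for stem over niche, and 2 lower for progenitor over niche. The shares over all genes were 3.40% lower and 3.71% higher, 10.7% lower and 10.9% higher, and 5.78% lower in that order, so the 1 of 9 higher for stem over niche was at the share over all genes. The first of these counts became 1 lower without stem replicate 2 or 4 or progenitor replicate 1, and the last became 1 without progenitor replicate 3 or 4. The integrin subunits Itgav and Itgb5, which pair as a vitronectin receptor, differed from Vtn in their order. Itgav ran from 3.90 to 10.4 RPKM among stem, 4.87 to 10.05 among progenitor and 18.2 to 27.4 among niche libraries, so that stem and progenitor overlapped and both were below niche. Itgav changed by -1.76 ± 0.42 for stem over niche and by -1.71 ± 0.42 for progenitor over niche on the log2 scale (SE, limma adjusted p = 0.00669 and 0.0145). Itgb5 changed by -1.80 ± 0.38 and -1.96 ± 0.38 (limma adjusted p = 0.00313 and 0.00306). Plau, the urokinase-type plasminogen activator, was higher in stem, by 2.94 ± 0.61 over progenitor and 2.03 ± 0.61 over niche (limma adjusted p = 0.00685 and 0.027), and the second call was lost without stem replicate 1 or 2 or niche replicate 3. Plat, the tissue-type activator, was lower, by -2.57 ± 0.62 and -3.60 ± 0.62 (limma adjusted p = 0.0177 and 0.000612). The complement regulators Clu and Cd59a were lower in stem in both comparisons, and Clu is also on the astrocyte list.

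Of 11 basement membrane genes, 1 was lower for stem over progenitor (the laminin subunit Lamc3, -1.20 ± 0.34, SE, limma adjusted p = 0.0428), 1 was lower for stem over niche (Lamb1, -2.06 ± 0.66, limma adjusted p = 0.0358) and 1 was higher for progenitor over niche. These counts of 1 in 11 stood against 3.40% and 10.7% of all genes lower and 5.68% higher, and nothing is read from them about the list. Without single libraries the first count ranged over 0 to 4 and the second over 0 to 2, with the most without niche replicate 1. The gene higher for progenitor over niche was the proteoglycan gene Bgn (2.04 ± 0.44, limma adjusted p = 0.00645), at 83.2 to 145 RPKM in progenitor and 14.2 to 54.4 in niche libraries. Of 8 genes of the signals between pericytes and endothelium, 1 was higher for stem over progenitor, 2 were higher and 3 lower for stem over niche (median -1.11), and 2 were lower for progenitor over niche. The shares over all genes were 3.71% higher, 10.9% higher and 10.7% lower, and 5.78% lower in that order. The Notch ligand Dll4 was higher in stem, by 1.74 ± 0.48 over progenitor and 2.20 ± 0.48 over niche (limma adjusted p = 0.0378 and 0.00398). The first of these calls was lost without any 1 of the stem or progenitor libraries, and without niche replicate 1 the list had 2 higher for stem over progenitor. The Notch partner Rbpj was higher for stem over niche (2.35 ± 0.46, limma adjusted p = 0.00191) and the Notch target Hes1 lower (-2.39 ± 0.48, limma adjusted p = 0.00216). Endoglin (Eng), a co-receptor of the TGF-beta family, was lower by -2.23 ± 0.58 for stem over niche and -2.43 ± 0.58 for progenitor over niche (limma adjusted p = 0.012 and 0.0131). The TGF-beta receptor Tgfbr1 was lower in the same comparisons, by -1.66 ± 0.42 and -2.50 ± 0.42 (limma adjusted p = 0.00972 and 0.000934).

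Likeness to each of the 3 genes was measured as Pearson's r of log2(TMM-scaled RPKM + 1) over the 12 libraries, which fall into 3 populations, so a high r can come from the difference between stem and the others. Rgs5 and Vtn were the closest pair, with r = 0.971 and Spearman's rho = 0.958. Vtn ranked first among all genes by likeness to Rgs5, and Rgs5 second by likeness to Vtn. Rgs5 and Higd1b had r = 0.934 and rho = 0.867, and Higd1b and Vtn r = 0.942 and rho = 0.909. After each population's mean was removed, r was 0.876 for Rgs5 and Vtn, 0.721 for Rgs5 and Higd1b and 0.781 for Higd1b and Vtn.

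Among the genes most like Rgs5 were Vtn (r = 0.971), the stathmin gene Stmn4 (0.953), the septin gene Sept4 (0.945) and carbonic anhydrase 2 (Car2, 0.945). Among those most like Vtn were Sept4 (0.972), Rgs5 (0.971), Car2 (0.966) and the tight junction gene Cldn11 (0.961). Those most like Higd1b were the small heat shock protein gene Cryab (0.977), the G protein subunit gene Gng11 (0.968), Ttyh2 (0.962), Cldn11 (0.961) and Gm16439 (0.958). The median r of the 13 pericyte genes was 0.735 with Rgs5, 0.626 with Higd1b and 0.704 with Vtn, against -0.03, -0.05 and -0.03 for all genes. The median r of the 9 astrocyte genes, at 0.785, 0.782 and 0.762, was above that of the pericyte list. The lists of the 5 most alike genes changed with the measure. Of each 5, Spearman's rho shared 1 for Rgs5, 3 for Higd1b and 2 for Vtn, and r after the population means were removed, a measure added after the data were seen, shared 1, 2 and 1.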

How the data were processed

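The values deposited by the authors are on a log2 scale and were read as log2(RPKM + 1), per gene and library. GRCm38 (mm10) is the genome build per the submitters' processing notes. Tools for alignment and counting, the use of strand and the choice of listed genes were not given in the sources used here. Per the labels' protocols, RNA was extracted with a column kit and amplified by a polymerase. With the log undone, 100% of values above 0 were whole reads within 1e-05 reads. The exon length equalled the annotated one for 1230 genes, Higd1b among them, and was found from the values for 9280, Rgs5 and Vtn among them, for which wholeness is a weaker check. 239 of 10749 genes were at 0 throughout. Symbols matched 10579 identifiers. 3 reads, the floor used here, are worth 0.131 to 0.395 CPM (counts scaled to a common library total) depending on the library.

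Genes were kept at 10 reads per median library (0.767 CPM) or more in at least 4 libraries and 15 reads in all, which left 8360, including the 3 genes. RPKM was divided by TMM factors from the recovered reads (trims of 30% and 5%), 1 was added, and log2 values were fitted in limma 3.58.1 (R 4.3.3) with 1 mean per population over 12 libraries, intensity trend and robust spread. Tests were two-sided, with Benjamini-Hochberg adjustment over all genes kept. Fold changes on this scale understate changes of low genes. The script was tested on simulated data. Motifs were counted and figures drawn in Python 3.11.15. The text names the 3 genes, the pericyte and smooth muscle genes, up to 4 genes of each list and comparison that passed with the largest fold changes, and genes among the 5 most like each of the 3, of which not all are reported here. Egfr and Csf1r were named beyond that rule as checks of the labels. The genes, lists and tests were chosen with earlier results of these data known.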

Additional observations from a re-analysis of the deposited data

Results flagged for a closer look

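Higd1b in progenitor replicate 1 stood apart from the other progenitor libraries. Its level was 278 RPKM there and 40.2 to 59.9 in the other 3, and the gap to the nearest was 0.917 of the group's whole range, above Dixon's 95% critical value for 4 samples. Vtn in the same library was at 1161, against 487 to 557 in the other 3, with a gap of 0.897 of the range. Rgs5 in progenitor replicate 1 was also the highest of its group, at 179 against 123 to 159.5, with no such gap. Before TMM scaling it was not the highest, at 164 RPKM against 180, 154 and 198 in progenitor replicates 2 to 4. 9 groups of 4 libraries were checked, on RPKM and not on the log2 scale of the fits, where a high value stands less far apart. Chance passes this value in about 1 in 20 groups only if values are normally distributed, which was not tested. Both flags come from the same library, in which the 13 other pericyte genes summed to 649.6 RPKM (212 to 243 in the remaining 3). That library also differed as a whole, with 8455 genes above 0 and a TMM factor of 0.917. The remaining 3 had 9608 to 9700 genes above 0 and factors of 1.24 to 1.25. The part of this in the flags was not tested.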

How the results depend on the processing

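Rgs5, Higd1b and Vtn kept negative log2 fold changes for stem over progenitor and stem over niche under all 21 alternatives run for each. Leaving out 1 library at a time gave -4.11 to -2.95 and -4.32 to -3.16 for Rgs5, -4.94 to -3.77 and -5.58 to -4.38 for Higd1b, and -4.52 to -3.22 and -4.37 to -3.06 for Vtn. Without progenitor replicate 1 and niche replicate 1 together the values were -3.49 and -3.77, -3.82 and -4.40, and -3.67 and -3.55.

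For progenitor over niche the sign changed. Library size alone, in place of TMM, moved the median of all genes to 0.62 for progenitor over niche and 0.58 for stem over niche, and gave 0.44 for Rgs5 and 0.16 for Higd1b. It gave 1525 higher and 314 lower genes (1839 in all) for progenitor over niche, and 2017 higher and 586 lower for stem over niche. Median-ratio factors gave -0.064 for Vtn. Without niche replicate 1 Higd1b was at 0.033, and Vtn was at -0.21, -0.09 and -0.19 without progenitor replicate 1, niche replicate 3 or niche replicate 4. The ranges without 1 library were -0.50 to -0.06 for Rgs5, -1.20 to 0.03 for Higd1b and -0.21 to 0.40 for Vtn.

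All genes passing numbered 594, 1806 and 958 for stem over progenitor, stem over niche and progenitor over niche, and 355 to 1093, 1272 to 2489 and 535 to 1641 without 1 library. With only the 2 groups fitted, the first and last were 1421 and 539. Without progenitor replicate 1 and niche replicate 1 the counts were 1116, 2997 and 1986.

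Pericyte genes lower ranged over 2 to 10, 3 to 11 and 0 to 2 without 1 library. Leaving out progenitor replicate 1 and niche replicate 1 gave 11 for stem over niche and 2 for progenitor over niche, where median-ratio factors and a pseudocount of 4 RPKM each gave 1. Smooth muscle genes lower ranged over 0 to 1, 1 to 5 and 0 to 4. For stem over progenitor they were 1 under library size alone, the 2 groups only or the replicate block. For stem over niche they were 2 with voom on the recovered reads or the 2 groups only. For progenitor over niche they were 2 under the replicate block and 0 under library size alone, a pseudocount of 0.1, no filter, voom, the 2 groups only, or without progenitor replicate 1 and niche replicate 1. These causes were not tested.

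The labels give the same replicate numbers in each population without saying what they share. Deviations of same-numbered libraries from their group means correlated at -0.128 to 0.206. Between stem and the other populations they ran from -0.128 to 0.0746, against -0.0940 to 0.142 for libraries of different number. Between progenitor and niche they ran from 0.0295 to 0.206, against -0.191 to 0.126. The numbers were not taken as pairs, although these values do not settle the matter for progenitor and niche. With the replicate block 607, 1814 and 947 genes passed, of which 554, 1698 and 873 were shared with the fit without it. Depth limits Higd1b most, at 6 and 3 reads in stem replicates 3 and 4.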
